A study of Sorghum bicolor with 177 samples.

Results

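The sorghum genes described here are the 3 copies that the deposited annotation names after POPEYE (PYE), a basic helix-loop-helix (bHLH) transcription factor of Arabidopsis. They are Sobic.001G355600, Sobic.002G385300 and Sobic.005G177800. They were taken by identifier, and they are all the genes with the symbol PYE among the 34129 genes of the table, which holds 172 genes of the bHLH family. For all 3 the closest Arabidopsis gene is PYE itself, and Sobic.005G177800 alone is listed as its one-to-one ortholog. The closest rice gene listed for Sobic.001G355600 is the locus known as IRO3, a negative regulator of the rice iron deficiency response.

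The plants were Sorghum bicolor BTx623, the inbred line of the sorghum reference genome, grown in a greenhouse in hydroponics. After an acclimation in full solution, seedlings were moved to 1 of 5 solutions. The control held 1 µM ZnSO4 and 50 µM NaFeEDTA, zinc limitation 0 µM ZnSO4, zinc excess 100 µM ZnSO4, iron limitation 0 µM NaFeEDTA and iron excess 1 mM NaFeEDTA, each with the other metal at its control level. Leaves were sampled at 2, 4, 7, 14 and 21 d and roots also at 1 h, with a control at 0 h in both, which gave 26 leaf means and 31 root means from 177 poly-A RNA-seq libraries of 80 plants.

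In Arabidopsis, PYE is induced when iron is short and represses genes of iron storage and distribution, among them ferritin, which stores iron in plastids, and nicotianamine synthase, which makes a metal chelator. Its partners are bHLH factors of the ILR3 group, and the ubiquitin ligase BRUTUS (BTS) limits the same response by marking some of these factors for degradation. The Ib bHLH genes such as bHLH38 act beside PYE and raise iron uptake in Arabidopsis roots. Whether the copies share reads in the authors' quantification was not tested. Which of these roles the sorghum copies have was not measured here.

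Every value is the authors' mean TPM (transcript abundance scaled for gene length and library size) of 1 tissue, treatment and time, so levels can be set beside each other between genes. Only means were used, with neither an SD nor an n of their own, and since TPM keeps no read depth the depth behind each value is unknown. Between 15533 and 17977 genes reached 1 TPM in the leaf means and between 18606 and 20758 in the root means. The tissue labels held: 17 leaf marker genes summed to between 51021 and 202298 TPM in leaf and to between 30.5 and 174 TPM in root, and 8 root markers to between 71.9 and 224 TPM in root and to between 0.203 and 7.78 TPM in leaf.

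Sobic.001G355600 reached the highest leaf level of the 3 copies, under iron limitation. It stood at 8.47 TPM at 2 d of iron limitation and then at 370.0, 715.9, 709.4 and 783.7 TPM at 4, 7, 14 and 21 d. The control leaves stood at 18.95 TPM at 0 h and at 22.9, 214.1, 213.3, 14.6 and 6.46 TPM at 2, 4, 7, 14 and 21 d. In such whole-tissue samples, fewer cells of a type and less RNA per cell cannot be told apart. Iron-limited leaves were above the control at 4 of 5 times, and the control itself was high at 4 and 7 d and low at the other times.

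Under iron excess the same gene was low at every leaf time. It stood at 5.30, 3.79, 3.78, 6.11 and 7.64 TPM at 2, 4, 7, 14 and 21 d. These 5 values included the 4 lowest of all 26 leaf means, and all lay below every iron limitation mean, as was the case for 0.626 percent of the 17088 genes tested in leaf. The span from the lowest leaf mean, iron excess at 7 d, to the highest, iron limitation at 21 d, was 207-fold.

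Sobic.002G385300 was a low-level gene in leaf and went the other way. Under iron limitation it stood at 3.44, 1.72, 0.205, 0.054 and 0.267 TPM at 2, 4, 7, 14 and 21 d. In control leaves it stood at 2.69 TPM at 0 h and at 5.10, 2.04, 4.31, 5.18 and 6.59 TPM afterwards. Its iron limitation means were below the control of the same time at 5 of 5 times, and from 7 d on they were below every other leaf mean.

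Under iron excess Sobic.002G385300 stood at 5.38, 7.58, 8.66, 13.20 and 9.68 TPM, above the control at 5 of 5 times. The difference was small at 2 d, where the control stood at 5.10 TPM. The single highest leaf mean belonged to zinc limitation at 21 d, with 13.89 TPM.

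Sobic.005G177800, the listed one-to-one ortholog of PYE, fell beside it. Under iron limitation it stood at 7.40, 1.75, 0.371, 0.355 and 0.283 TPM at 2, 4, 7, 14 and 21 d. In control leaves it stood at 14.95 TPM at 0 h and at 11.76, 4.95, 7.32, 13.01 and 23.03 TPM afterwards. It was below the control at 5 of 5 times of iron limitation, and its control minimum at 4 d fell on a time when Sobic.001G355600 was high.

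Under iron excess Sobic.005G177800 stood at 17.68, 23.70, 18.78, 20.98 and 27.33 TPM, above the control at 5 of 5 times. The iron excess and iron limitation means of this gene did not overlap. The same held for Sobic.002G385300, whose highest iron limitation mean, 3.44 TPM, lay below its lowest iron excess mean, 5.38 TPM. Every iron limitation mean lay below every iron excess mean in 0.913 percent of the 17088 genes.

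**Figure D1:**
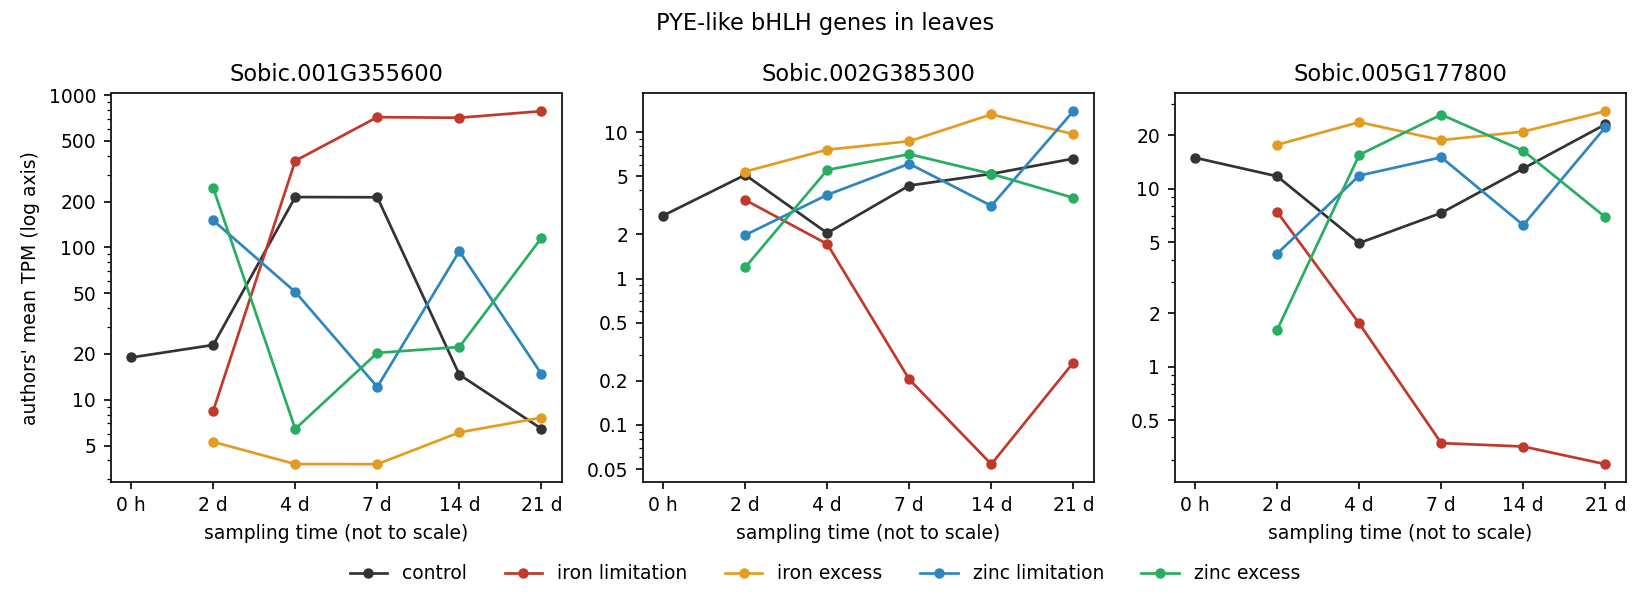
Mean TPM of each PYE-like gene in leaf (log axis) by sampling time, with 1 line for each treatment and the authors' mean as each point. Under iron limitation Sobic.001G355600 reached 783.7 TPM at 21 d while Sobic.002G385300 and Sobic.005G177800 were at 0.267 and 0.283 TPM.

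The treatments were compared with limma on log2(mean TPM + 1), with the sampling time as the replicate, all leaf or root means after 0 h in 1 fit and Benjamini-Hochberg adjustment over all genes. The spread behind each p-value is therefore that among sampling times, and plants of 1 time do not enter it. The log scale with 1 TPM added understates differences of genes near or below 1 TPM.

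Iron limitation against control in leaf lowered Sobic.005G177800 by a log2 difference of -2.38 ± 0.59 (SE; adjusted p = 0.0294) and Sobic.002G385300 by a log2 difference of -1.58 ± 0.44 (adjusted p = 0.0384). The rise of Sobic.001G355600, a log2 difference of 2.68 ± 1.22, did not pass (adjusted p = 0.132). In this comparison 1.87 percent of the 17088 genes tested were called lower and 6.79 percent higher, and the median log2 difference of all genes was 0.24. With the means rescaled to a common median, the genes called went from 1161 higher and 320 lower to 604 higher and 698 lower, and both copies remained called, with log2 differences of -2.62 and -1.81. Of 16 leaf markers tested, 6 were called lower and 0 higher in limma, with a median log2 difference of -0.60, and their part in the result was not tested.

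Both calls were lost with no filter on low genes (adjusted p = 0.0741 for Sobic.002G385300 and 0.0578 for Sobic.005G177800) and with only the control and iron limitation means fitted (0.0932 and 0.0833). They also needed every late time. Without 7, 14 or 21 d the adjusted p was 0.13, 0.197 and 0.132 for Sobic.005G177800 and 0.184, 0.211 and 0.138 for Sobic.002G385300, and at most 1 gene of all was called in either direction. Without 2 d the rise of Sobic.001G355600 passed, with a log2 difference of 3.69 ± 1.02 (adjusted p = 0.0339).

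At 7, 14 and 21 d taken as a late effect, all 3 copies passed. Sobic.001G355600 rose by 4.66 ± 1.502 log2 units (adjusted p = 0.0245). Sobic.002G385300 had a log2 difference of -2.42 ± 0.44 (adjusted p = 0.00112) and Sobic.005G177800 of -3.40 ± 0.66 (adjusted p = 0.00159). The late effect of iron limitation was broad in leaf, since 32.5 percent of all genes were called higher and 5.31 percent lower, with a median log2 difference of 0.42 over all genes. Of the 16 leaf markers, 10 were called lower and 0 higher, with a median log2 difference of -1.05, and their part in the result was not tested. The falls of Sobic.002G385300 and Sobic.005G177800 stayed past the threshold without any 1 time. The rise of Sobic.001G355600 did not, with 4.23 (adjusted p = 0.149) without 14 d and 3.63 (adjusted p = 0.126) without 21 d, nor with rescaled means, with 4.25 (adjusted p = 0.0568), nor with no filter on low genes (adjusted p = 0.0583). With 0.1 TPM added in place of 1, the late log2 difference of Sobic.002G385300 was -4.38.

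The change with time was itself tested as late minus early. The log2 differences were 4.93 ± 2.38 for Sobic.001G355600 (adjusted p = 0.205), -2.11 ± 0.70 for Sobic.002G385300 (adjusted p = 0.0955) and -2.54 ± 1.04 for Sobic.005G177800 (adjusted p = 0.152). None passed, against 3.52 percent of all genes called in either direction. With only the control and iron limitation means fitted, Sobic.002G385300 (adjusted p = 0.0281) and Sobic.005G177800 (adjusted p = 0.0443) did pass. At single times, with no test, Sobic.001G355600 stood 121-fold above the control at 21 d, Sobic.002G385300 95.9-fold below it at 14 d and Sobic.005G177800 81.5-fold below it at 21 d. The last 2 ratios are the largest of each gene and rest on means of 0.054 and 0.283 TPM. Sobic.002G385300 stood 21.1-fold below the control at 7 d and 24.7-fold at 21 d, and Sobic.005G177800 19.7-fold at 7 d and 36.6-fold at 14 d. Sobic.001G355600 stood 1.73-fold above the control at 4 d, 3.36-fold at 7 d and 48.5-fold at 14 d. At 2 d it was below the control, at a ratio of 0.37. Its 121-fold ratio is also its largest and rests on its lowest control leaf mean, 6.46 TPM.

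The widest contrast in iron supply, iron limitation against iron excess, takes no control mean into the difference, although the control and zinc means enter the fit from which its error comes. In leaf, Sobic.001G355600 was higher under iron limitation by 5.45 ± 1.22 log2 units (adjusted p = 0.0149). Sobic.002G385300 had a log2 difference of -2.40 ± 0.44 (adjusted p = 0.00861) and Sobic.005G177800 of -3.33 ± 0.59 (adjusted p = 0.00833). Of all genes, 5.95 percent were called higher and 2.39 percent lower. With only these 2 treatments fitted, the adjusted p of Sobic.002G385300 was 0.051. Leaving out 7, 14 or 21 d ended the calls of Sobic.001G355600 (adjusted p = 0.0839, 0.144 and 0.0924) and of Sobic.002G385300 (adjusted p = 0.061, 0.128 and 0.0724). For Sobic.005G177800 the call was lost without 14 d (adjusted p = 0.128) and without 21 d (adjusted p = 0.0724).

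The order of the 3 iron supplies was seen in the values and then counted. Sobic.002G385300 and Sobic.005G177800 rose from iron limitation to control to iron excess at 5 of 5 leaf times, as did 0.152 percent (26) of the 17088 genes. Both FER4-like ferritin genes, Sobic.005G004500 and Sobic.008G004800, were also among those 26. Sobic.001G355600 had the opposite order at 3 of 5 leaf times (4, 7 and 14 d). At 2 d its iron-limited leaves were below the control, and at 21 d its control was below iron excess.

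Iron excess against control in leaf gave no call for any copy. The log2 differences were -2.77 ± 1.22 for Sobic.001G355600, 0.82 ± 0.44 for Sobic.002G385300 and 0.95 ± 0.59 for Sobic.005G177800, with an adjusted p of 0.999 for each in limma. The share of all genes called was 0 percent, and 521 genes had an unadjusted p under 0.05.

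**Figure D2:**
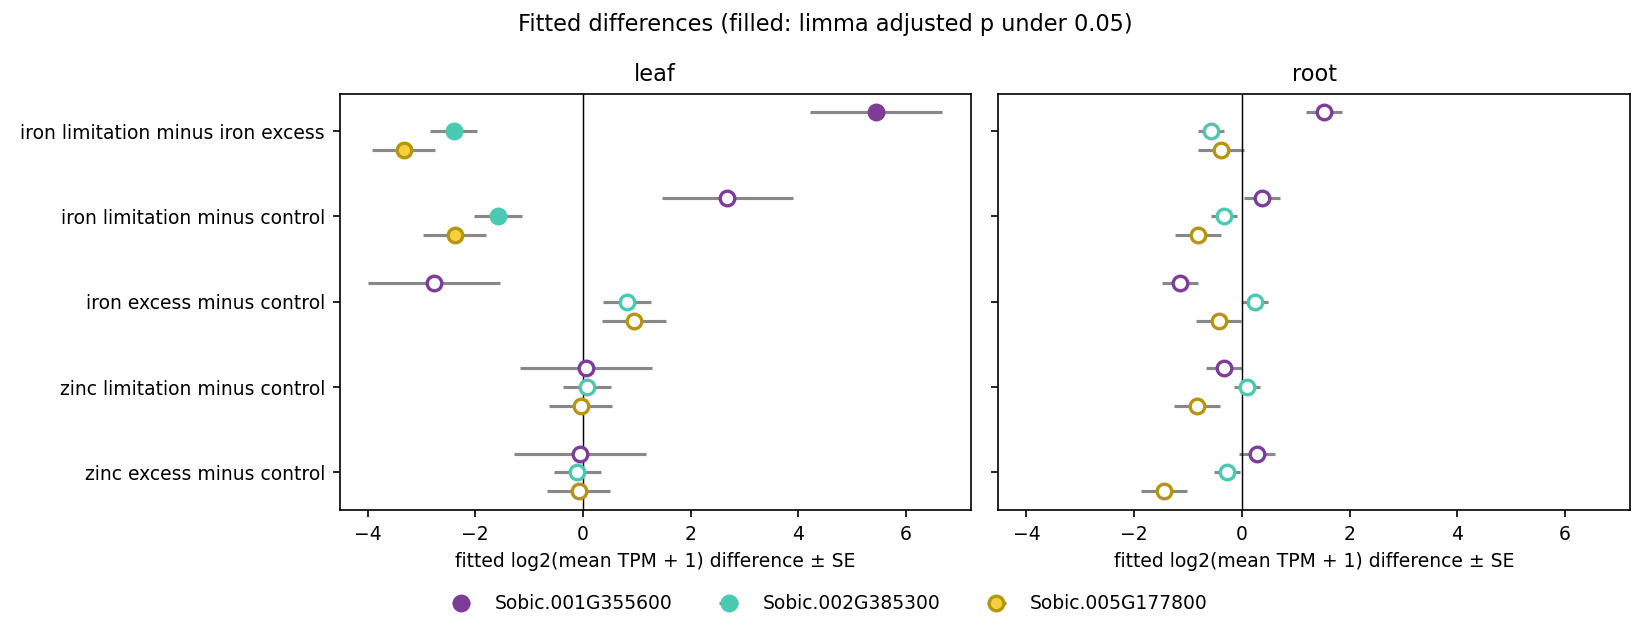
Fitted log2(mean TPM + 1) differences with their standard errors (horizontal axis) for 5 contrasts (vertical axis) in leaf and root, coloured by gene, with filled points for adjusted p under 0.05. In leaf, Sobic.001G355600 at 5.45 and the other copies at -2.40 and -3.33 stand on opposite sides of 0 for iron limitation minus iron excess, and no root point is filled.

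The mix of the 3 copies in leaf differed with iron supply. Sobic.001G355600 made up 43.9 percent of the summed TPM of the 3 genes at 2 d of iron limitation and from 99.1 to 99.9 percent at the later times. Under iron excess it made up from 10.8 to 18.7 percent, and Sobic.005G177800 from 52.1 to 67.6 percent. In control leaves the share of Sobic.001G355600 ran from 17.9 percent at 21 d to 96.8 percent at 4 d.

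**Figure D3:**
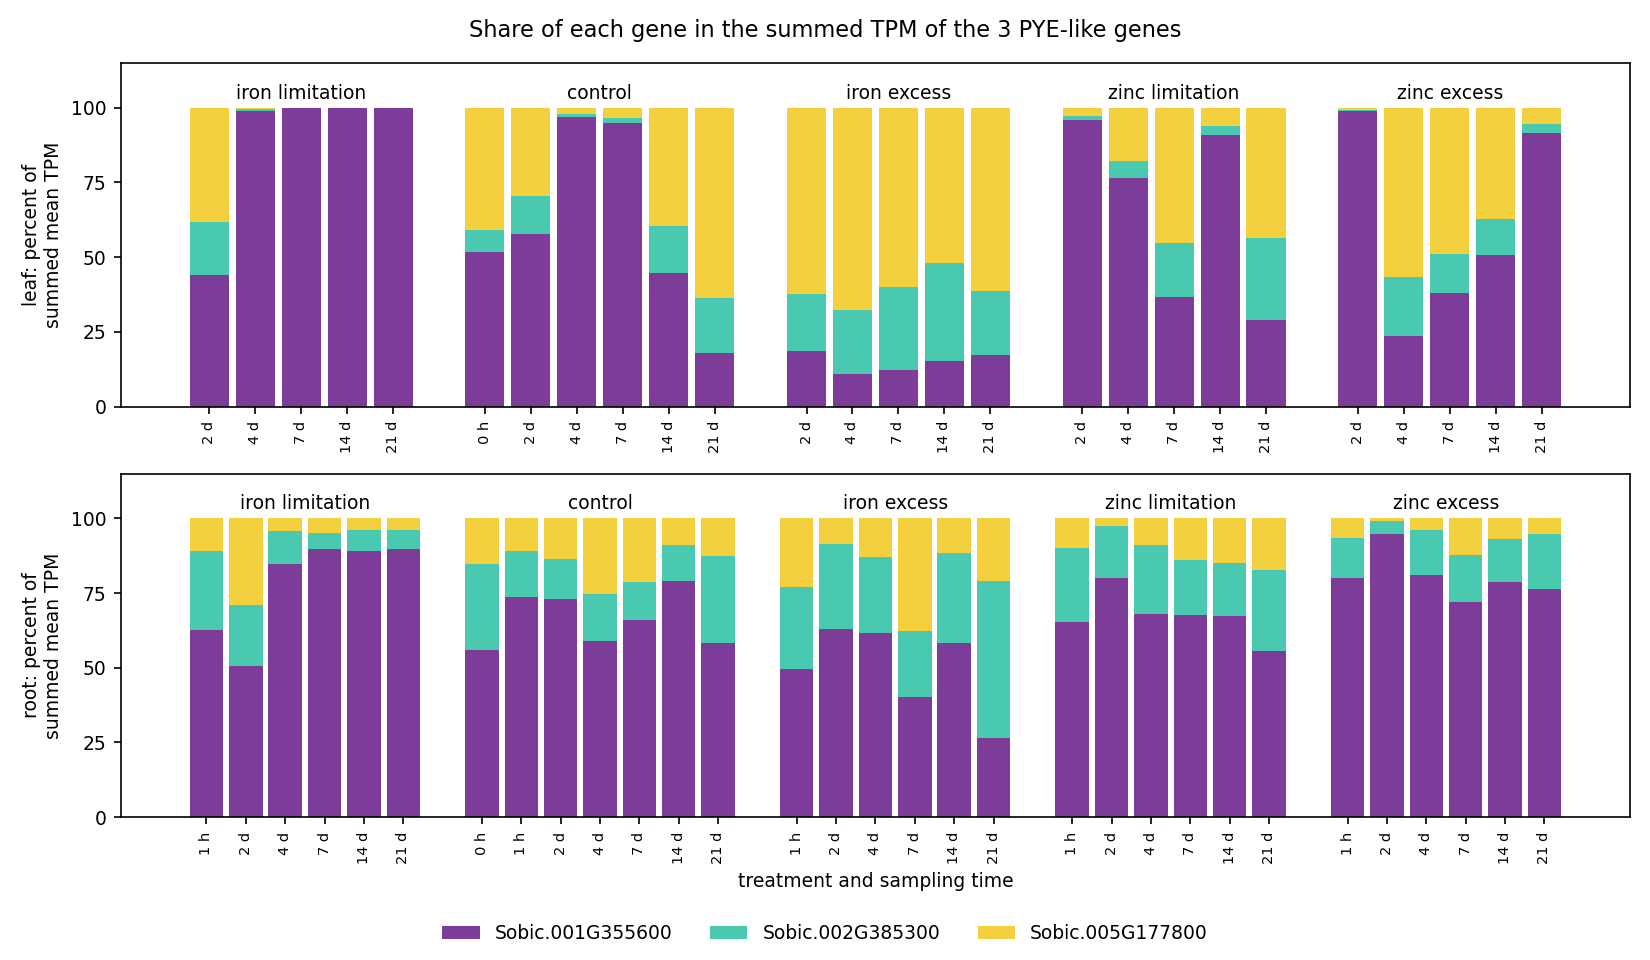
Percent of the summed mean TPM of the 3 genes that each gene contributed (vertical axis), for each treatment and time in leaf (top) and root (bottom). In leaf the share of Sobic.001G355600 reached 99.9 percent under iron limitation and was at most 18.7 percent under iron excess; in root it ran from 26.5 to 94.8 percent.

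Neither zinc treatment gave a call for a copy in leaf, yet single zinc means were far apart. Under zinc excess Sobic.001G355600 stood at 245.7, 6.44, 20.33, 22.2 and 115.3 TPM at 2, 4, 7, 14 and 21 d. Under zinc limitation it stood at 150.4, 51.04, 12.1, 94.5 and 14.8 TPM at the same times. Each treatment was above the control at 3 of 5 times and below it at 2, so the values had no common direction.

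The other copies were low in the zinc means in which Sobic.001G355600 was high. Sobic.005G177800 stood at 1.61, 15.5, 26.1, 16.4 and 6.93 TPM under zinc excess and at 4.32, 11.9, 15.03, 6.25 and 22.2 TPM under zinc limitation. Sobic.002G385300 stood at 1.19, 5.51, 7.07, 5.18 and 3.56 TPM under zinc excess and at 1.98, 3.73, 6.08, 3.14 and 13.89 TPM under zinc limitation. Both were at their zinc excess minimum at 2 d, the zinc excess maximum of Sobic.001G355600.

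The fitted log2 differences of the 3 copies lay between -0.04 and 0.08 for zinc limitation against control, and between -0.10 and -0.06 for zinc excess, with SEs from 0.44 to 1.22. Of all genes, 0 percent were called for zinc limitation (192 had an unadjusted p under 0.05) and 0.0293 percent for zinc excess in limma. Zinc limitation against zinc excess gave log2 differences from 0.04 to 0.18, with no copy called against 0.0176 percent of all genes.

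Iron-related genes also stood apart in some of these single means. Sobic.003G428800, a bHLH38-like gene of the Ib group, stood at 503.3 TPM at 2 d of zinc excess and at 149.7 TPM in the 4 d control, against 1.66 to 14.7 TPM in the control leaves of the other times. Ferritin Sobic.008G004800 stood at 31.5 TPM in the first of these and at 53.2 TPM in the second, against 141.6 to 332.0 TPM in the other control leaves. The other ferritin gene, Sobic.005G004500, stood at 14.5 and 34.3 TPM in them, against 45.9 to 139.6 TPM in the other control leaves. In these same leaf means Sobic.005G177800 stood at 1.61 and 4.95 TPM. In the 7 d control Sobic.001G355600 was as high as at 4 d (213.3 TPM). There Sobic.003G428800 stood at 14.7 TPM, against 1.66 to 4.64 TPM in the controls at 0 h, 2, 14 and 21 d. BTS-like Sobic.009G222200 stood at 64.6 TPM, against 15.2 to 28.1 TPM in those same controls. Ferritin Sobic.008G004800 stood at 141.6 TPM, near the 144.9 TPM of the 2 d control, and Sobic.005G004500 at 95.7 TPM, against 76.8 TPM. Whether the iron state of those plants differed was not tested.

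Across the 26 leaf means, Sobic.001G355600 ran opposite to Sobic.005G177800 (Pearson r = -0.91, Spearman rho = -0.86 on log2(mean TPM + 1)) and to Sobic.002G385300 (r = -0.87, rho = -0.84), while the latter pair ran together (r = 0.94, rho = 0.94). Over the 21 leaf means without iron limitation the same values of r were -0.88, -0.78 and 0.87. These are descriptions, since the means share times and treatments. In the 31 root means r was -0.21, -0.07 and 0.40 in the same order, and over the 7 root controls r was positive for each pair, at 0.74, 0.61 and 0.64.

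The leaf genes most like Sobic.001G355600 over the 26 means, of 15492 described genes, were an F-box gene, Sobic.003G326400 (r = 0.98), major facilitator genes Sobic.005G037300 (r = 0.98) and Sobic.003G371000 (r = 0.98), ORG1-like Sobic.003G241900 (r = 0.97) and BTS-like Sobic.009G222200 (r = 0.96). Without the late iron limitation means, these 5 kept the first 5 places, with r from 0.94 to 0.97. The most opposite were NYC1-like Sobic.003G010600 (r = -0.93), related to a chlorophyll b reductase, ferritin Sobic.008G004800 (r = -0.92) and SKIP6-like Sobic.002G414500 (r = -0.91).

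Both remaining copies had ferritin Sobic.008G004800 and SKIP6-like Sobic.002G414500, from the 3 genes most opposite to Sobic.001G355600, among their 5 closest. Sobic.005G177800 ran closest to DER2.2-like Sobic.001G009300 (r = 0.97), NYC1-like Sobic.003G010600 (r = 0.97), ferritin Sobic.008G004800 (r = 0.96), GLTP3-like Sobic.006G087200 (r = 0.96) and SKIP6-like Sobic.002G414500 (r = 0.95). It was most opposite to Sobic.001G107800, listed as a predicted protein (r = -0.96), ORG1-like Sobic.003G241900 (r = -0.96) and the auxin response regulator IAA3-like Sobic.008G157000 (r = -0.96).

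Sobic.002G385300 ran closest to the same derlin gene, Sobic.001G009300 (r = 0.95), both ferritin genes, Sobic.008G004800 (r = 0.95) and Sobic.005G004500 (r = 0.94), SKIP6-like Sobic.002G414500 (r = 0.95) and a RabGAP gene, Sobic.001G193300 (r = 0.94). It was most opposite to ORG1-like Sobic.003G241900 (r = -0.92), CAS1-like Sobic.004G037200 (r = -0.91), a cycloartenol synthase of sterol synthesis, and OPT3-like Sobic.001G087700 (r = -0.90), related to a phloem iron transporter.

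**Figure D4:**
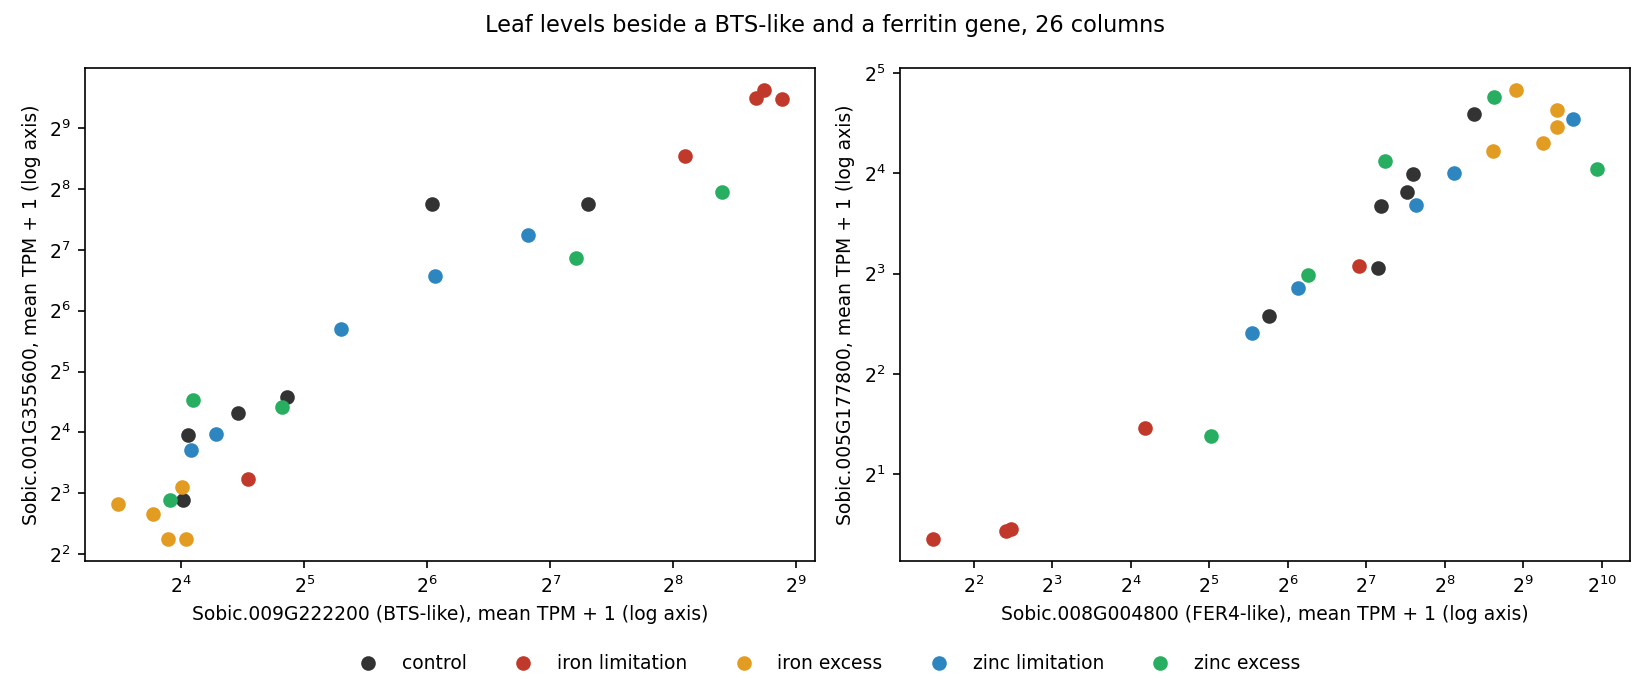
Leaf level of Sobic.001G355600 against BTS-like Sobic.009G222200 (left) and of Sobic.005G177800 against ferritin Sobic.008G004800 (right), each as mean TPM + 1 on log axes, with 1 point for each of the 26 leaf means coloured by treatment. Pearson r on the log2 scale was 0.96 in each panel, and points of iron limitation and iron excess lie at opposite ends apart from iron limitation at 2 d.

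Among the iron regulators named after Arabidopsis genes, 11 of 12 were tested in leaf, the PYE-like copies included. For iron limitation against iron excess, 4 were called higher and 4 lower, beside 5.95 and 2.39 percent of all genes, with a median log2 difference of 0.11, beside 0.15 over all genes. The rises were those of Sobic.001G355600, of bHLH38-like Sobic.003G428800 (6.20 ± 1.74, adjusted p = 0.0325) and of BTS-like Sobic.003G262200 (3.12 ± 0.76, adjusted p = 0.0176) and Sobic.009G222200 (3.94 ± 0.92, adjusted p = 0.0156). The falls were those of the other PYE-like copies and of ILR3-like Sobic.009G160000 (-3.35 ± 0.66, adjusted p = 0.0103) and Sobic.004G012100 (-0.87 ± 0.18, adjusted p = 0.0127). Against control 0 were called higher and 4 lower, the same PYE-like and ILR3-like genes, beside 6.79 and 1.87 percent of all genes, and 4 of the 11 were higher at an unadjusted p under 0.05 in limma.

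These counts rested on the late times. Against iron excess, the regulators called higher went from 4 to 0 without 7, 14 or 21 d and to 2 with only these 2 treatments fitted. Those called lower went from 4 to 1 without 7 d, to 0 without 14 d or 21 d and to 1 with only the 2 treatments fitted. Against control, those called lower went from 4 to 0 without 7, 14 or 21 d, with no filter on low genes and with only the means compared in the fit, while those called higher went from 0 to 4 without 2 d and to 1 without 4 d.

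Of 4 ILR3-like genes tested in leaf, 2 were called lower against control, where 1.87 percent of all genes were, and 0 higher, where 6.79 percent were (0 also at an unadjusted p under 0.05 in limma). In iron-limited leaves Sobic.009G160000 stood at 46.04, 25.5, 3.35, 5.01 and 1.15 TPM at 2, 4, 7, 14 and 21 d, against 55.2, 43.9, 33.6, 102.9 and 145.7 TPM in the control. The remaining ILR3-like genes, Sobic.002G329300 and Sobic.007G033800, had log2 differences of 0.42 ± 0.21 (adjusted p = 0.203) and 0.11 ± 0.13 (adjusted p = 0.635) for iron limitation against iron excess.

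Of 5 sorghum genes named after genes that PYE binds or represses in Arabidopsis, 3 were tested in leaf and all 3 were called lower under iron limitation, against control (1.87 percent of all genes) and against iron excess (2.39 percent). Against iron excess the log2 differences were -5.63 ± 0.95 for ferritin Sobic.008G004800 (adjusted p = 0.00793), -5.05 ± 0.92 for ferritin Sobic.005G004500 (adjusted p = 0.00833) and -1.24 ± 0.23 for NAS4-like Sobic.001G151400, a nicotianamine synthase (adjusted p = 0.00886). Their median was -5.05, beside 0.15 over all genes. Against iron excess the number called lower went from 3 to 0 without 7 d or 14 d and to 1 without 21 d. Against control it went from 3 to 0 without 7, 14 or 21 d, with no filter on low genes and with only the means compared in the fit.

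Of 36 genes of iron uptake and transport, 18 were tested for iron limitation against iron excess, and 4 were called higher and 0 lower, beside 5.95 and 2.39 percent of all genes. They were OPT3-like Sobic.001G087700 (4.47 ± 0.88), NRAMP6-like Sobic.002G095600 (5.74 ± 1.21), YSL7-like Sobic.004G224000 (0.98 ± 0.23) and NRAMP2-like Sobic.001G462500 (2.64 ± 0.64). At an unadjusted p under 0.05 in limma, 2 of the 18 were lower. The 4 calls went to 0 without 7, 14 or 21 d and with only these 2 treatments fitted, and with rescaled means 1 gene was called lower. Against control 4 of the 18 were called higher and 1 lower, beside 6.79 and 1.87 percent of all genes. For the late effect against control 7 were called higher and 1 lower, beside 32.5 and 5.31 percent.

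In root every copy was expressed at every time and the levels lay closer together. Under iron limitation Sobic.001G355600 stood at 41.7, 76.4, 127.7, 161.5, 177.8 and 202.9 TPM at 1 h, 2, 4, 7, 14 and 21 d. In control roots it stood at 30.0 TPM at 0 h and at 79.2, 194.0, 94.1, 74.6, 108.2 and 41.8 TPM afterwards. Under iron excess it stood at 31.3, 70.8, 55.01, 22.2, 68.9 and 19.5 TPM. Iron-limited roots were below the control at 1 h and 2 d and above it at the other 4 times, while iron excess lay below the control at 6 of 6 times. The largest of these 6 differences, at 7 d, comes from a mean that stands apart, with 35.5 percent of its TPM in its 10 most abundant genes against 4.27 to 7.74 percent in the other root means.

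No copy was called in an iron comparison of root over all times. For Sobic.001G355600 the log2 difference was 0.38 ± 0.33 for iron limitation against control (adjusted p = 1.00) and -1.15 ± 0.33 for iron excess (adjusted p = 0.653, unadjusted p = 0.00204). Of the 20481 genes tested, 0 percent were called in each of these comparisons in limma, with 100 and 1537 genes at an unadjusted p under 0.05. For iron limitation against iron excess the log2 difference of Sobic.001G355600 was 1.53 ± 0.33 (unadjusted p = 0.000118). Its adjusted p, 0.432, was the lowest of all genes, of which 0 percent were called and 1324 had an unadjusted p under 0.05.

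At 7, 14 and 21 d alone, iron limitation against iron excess in root passed for Sobic.001G355600, with a log2 difference of 2.49 ± 0.34 (adjusted p = 0.0133), where 0.137 percent of genes were called higher. Without the iron excess mean at 7 d, left out after its share of abundant genes was seen, the call was lost, with a log2 difference of 2.29 ± 0.39 (adjusted p = 0.149). In limma 0 genes were then called, with 663 at an unadjusted p under 0.05. The number of libraries read from the values of that mean is 3, against 2 in the labels. Against control, the late effect of iron limitation on Sobic.001G355600 in root was 1.36 ± 0.34 log2 units (limma adjusted p = 0.992, unadjusted p = 0.000731). Its early effect was -0.60 ± 0.34 (adjusted p = 0.905). Of all genes, 0 were called in either comparison, with 703 and 759 at an unadjusted p under 0.05. The late minus early log2 difference of its iron limitation effect was 1.96 ± 0.48 (adjusted p = 0.535, unadjusted p = 0.000603). Its supply order, iron limitation above control above iron excess, held at 4 of 6 root times.

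For Sobic.002G385300 and Sobic.005G177800 the late fall under iron limitation was smaller in root than in leaf and was not called. The late effects in root were log2 differences of -0.43 ± 0.32 and -0.70 ± 0.55 (limma adjusted p = 0.992 for both), beside -2.42 and -3.40 in leaf. Of the 20481 genes, 0 were called in this root comparison, with 703 at an unadjusted p under 0.05. Under iron limitation Sobic.002G385300 stood at 17.5, 30.5, 16.6, 9.48, 14.3 and 14.1 TPM, against 16.4, 35.99, 25.6, 14.4, 16.4 and 20.9 TPM in the control. Sobic.005G177800 stood at 7.34, 43.9, 6.56, 8.64, 7.52 and 8.78 TPM, against 11.8, 35.8, 40.4, 24.3, 12.4 and 9.14 TPM. Both were below the control at 5 of 6 times, with log2 differences of -0.34 ± 0.24 and -0.81 ± 0.42 that did not pass (adjusted p = 1.00 for both).

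Under iron excess in root, Sobic.002G385300 stood at 17.2, 31.9, 22.5, 12.3, 35.2 and 38.5 TPM and Sobic.005G177800 at 14.4, 9.69, 11.6, 21.0, 13.9 and 15.5 TPM. Each was above the control at 3 of 6 times and below it at 3. The log2 differences were 0.24 ± 0.24 (adjusted p = 0.812) and -0.43 ± 0.42 (adjusted p = 0.805). Against iron limitation neither passed, with iron limitation minus iron excess at -0.57 ± 0.24 (adjusted p = 0.726) and -0.38 ± 0.42 (adjusted p = 0.859).

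**Figure D5:**
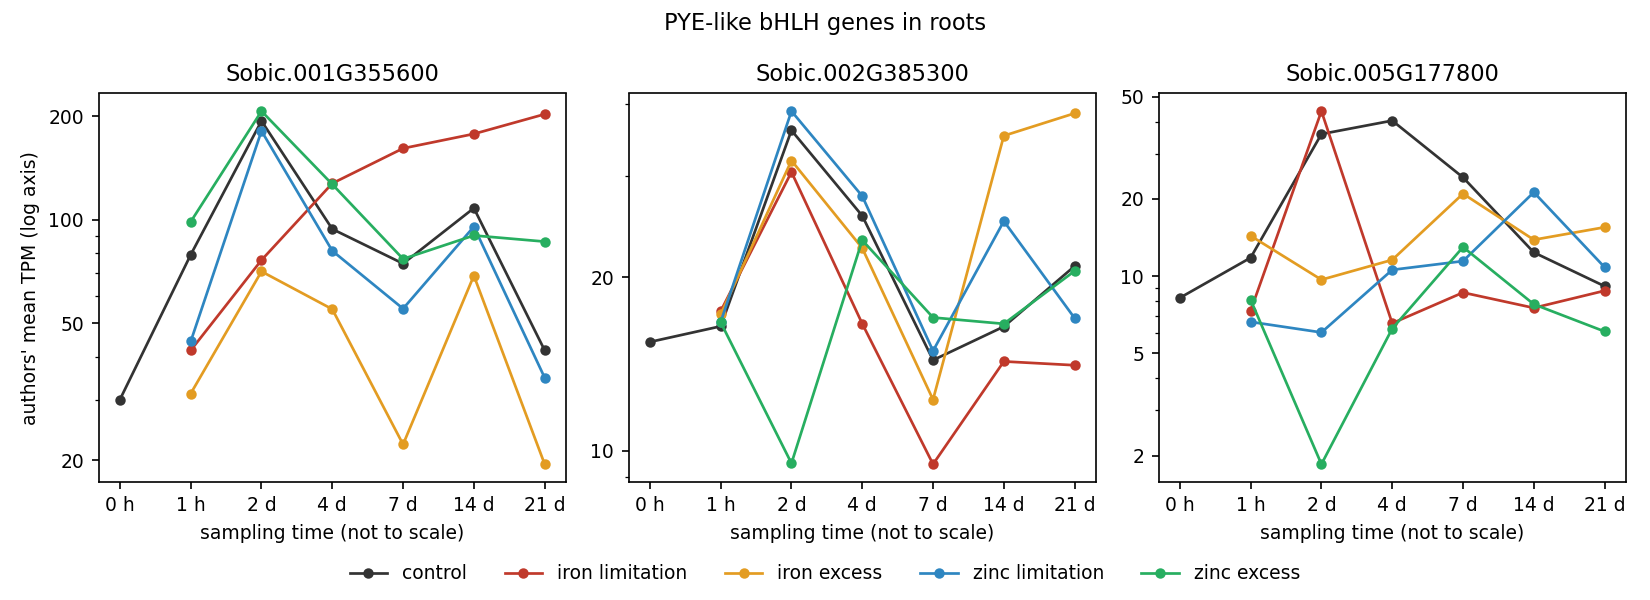
Mean TPM of each PYE-like gene in root (log axis) by sampling time, with 1 line for each treatment and the authors' mean as each point. Under iron limitation Sobic.001G355600 stood at 202.9 TPM at 21 d, above the 41.8 TPM of the control, while the other copies stayed between 6.56 and 43.9 TPM.

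Among the zinc means of root, that of Sobic.005G177800 at 2 d of zinc excess stood furthest from its control. The library number of that zinc excess mean is 3 as read from its values, against 2 in the labels. Its control at 2 d stood at 35.8 TPM, above the 8.24 to 12.4 TPM of the controls at 0 h, 1 h, 14 and 21 d. Under zinc excess Sobic.005G177800 stood at 8.09, 1.85, 6.25, 12.99, 7.77 and 6.09 TPM, below the control at 6 of 6 times, with 1.85 TPM at 2 d its lowest root mean. Its log2 difference of -1.45 ± 0.42 did not pass (adjusted p = 0.0918), where 1.39 percent of genes were called in either direction. Under zinc limitation it stood at 6.64, 6.04, 10.6, 11.4, 21.2 and 10.8 TPM, with a log2 difference of -0.84 ± 0.42 (adjusted p = 0.76) and 0.00977 percent of genes called.

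Under zinc excess Sobic.002G385300 stood at 16.7, 9.51, 23.2, 17.03, 16.6 and 20.5 TPM and Sobic.001G355600 at 98.7, 207.1, 126.9, 76.997, 90.1 and 86.5 TPM. At 2 d Sobic.001G355600 was at its highest root mean while the other copies were low. That mean was near its own 2 d control of 194.0 TPM, at a ratio of 1.07. Under zinc limitation Sobic.001G355600 stood at 44.3, 181.4, 81.3, 55.2, 95.6 and 34.8 TPM, below the control at 6 of 6 times. Sobic.002G385300 then stood at 16.7, 38.9, 27.7, 14.9, 25.04 and 16.99 TPM. None of these comparisons passed, with adjusted p from 0.633 to 0.923, and zinc limitation against zinc excess gave no call for a copy against 0.859 percent of all genes.

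The genes most like Sobic.001G355600 in root were partly those of leaf. Over 31 means and 18664 described genes they were ORG1-like Sobic.003G241900 (r = 0.96), the F-box gene Sobic.003G326400 (r = 0.94), CAO-like Sobic.003G435800 (r = 0.93), described as a chlorophyllide a oxygenase, OPT3-like Sobic.001G087700 (r = 0.90) and major facilitator gene Sobic.003G371000 (r = 0.89). Ferritin Sobic.008G004800 was the most opposite (r = -0.71), followed by DER2.2-like Sobic.001G009300 (r = -0.66) and a lipase gene, Sobic.010G044500 (r = -0.64).

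For the other copies the root order was unlike that of leaf. Sobic.005G177800 ran closest to the photosystem II gene PSBX-like Sobic.003G055300 (r = 0.86), TAP38-like Sobic.003G185900 (r = 0.85), described as thylakoid-associated, HXK1-like hexokinase Sobic.003G035500 (r = 0.85), an amino acid transporter, Sobic.006G106700 (r = 0.83), and Sobic.009G010700 (r = 0.83). It was most opposite to an alcohol dehydrogenase gene, Sobic.001G264000 (r = -0.83), GAPC-like Sobic.007G025400 (r = -0.78), of glycolysis, and SC3-like Sobic.002G340700 (r = -0.76).

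Sobic.002G385300 had no close match in root. Its highest r was 0.72, with an arginyl-tRNA synthetase, Sobic.002G119800, followed by a protein kinase, Sobic.010G219600 (r = 0.72), a peroxidase, Sobic.002G416700 (r = 0.72), a BRO1-domain gene, Sobic.004G226400 (r = 0.72), and TPST-like Sobic.010G045833 (r = 0.71). The lowest were with Sobic.002G368800 (r = -0.70), Sobic.005G120800 (r = -0.69) and CYP78A5-like Sobic.001G336200 (r = -0.68). Without the late iron limitation means its first 5 fell to places between 15 and 308.

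In control plants the copies differed in how root compared with leaf. Sobic.002G385300 stood between 14.4 and 35.99 TPM in control roots and between 2.04 and 6.59 TPM in control leaves, and the groups did not overlap, as held in the same direction for 50.7 percent of 20595 genes. Its root minus leaf log2 difference over 6 times was 2.07 ± 0.26 (adjusted p = 5.83e-05), where 65.5 percent of these genes were called higher in root and the median of all genes was 1.13. Sobic.001G355600 was higher in root at 4 of 6 times (1.05 ± 0.64, adjusted p = 0.152) and Sobic.005G177800 at 3 of 6 (0.64 ± 0.50, adjusted p = 0.259). Without 7 d the difference of Sobic.001G355600 passed (1.56, adjusted p = 0.0439).

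Whether iron limitation acted differently in root and leaf was tested over the 5 shared times. The root minus leaf difference of the effect was -2.05 ± 1.00 log2 units for Sobic.001G355600 (adjusted p = 0.312), 1.16 ± 0.44 for Sobic.002G385300 (adjusted p = 0.208) and 1.53 ± 0.55 for Sobic.005G177800 (adjusted p = 0.194). None passed, and 0.103 percent of 15528 genes did. Without 4 d that of Sobic.005G177800 passed (2.25, adjusted p = 0.0371).

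At 7, 14 and 21 d alone the tissue difference passed for all 3 copies. It was -3.30 ± 0.93 for Sobic.001G355600 (adjusted p = 0.0475), 2.00 ± 0.49 for Sobic.002G385300 (adjusted p = 0.0267) and 2.70 ± 0.62 for Sobic.005G177800 (adjusted p = 0.0216). In that set 1.18 percent of genes were called with the higher effect in root and 5.45 percent with the lower. Without the iron excess mean at 7 d in the fit, that of Sobic.001G355600 no longer passed (adjusted p = 0.0656), while those of Sobic.002G385300 (adjusted p = 0.033) and Sobic.005G177800 (adjusted p = 0.0335) did. For the other treatments, and for late minus early of all treatments but iron limitation, 27 tests over 9 comparisons were made and 0 copies passed in limma (lowest adjusted p = 0.266, 3 tests at an unadjusted p under 0.05). Of all genes, 0.251 percent were called for root minus leaf of zinc excess, 0.395 percent for late minus early of iron excess in root, and 0 percent in each of the other 7 comparisons.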

How the data were processed

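The authors' deposited table holds mean TPM, 1 column per tissue, time and treatment (57 columns, 34924 rows for 34129 genes); 795 identical repeats were dropped, 5 of the 6 identical rows of Sobic.005G177800 among them. Because of the repeats 8 deposited columns were recorded as signal in the unit check; they too hold the authors' mean TPM. Per the submitters' processing notes, DRAGEN made the quantification (its version, the build and the annotation: not given in the sources used here). In 3 root means the library number read from the values differs from the labels, among them zinc excess at 2 d.

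Levels were fitted as log2(mean TPM + 1) for genes with a mean of at least 1 TPM in the tissue after 0 h. Time and treatment were additive terms, in limma 3.58.1 (R 4.3.3, trend on), with Benjamini-Hochberg adjustment and a threshold of 0.05. The fits were also run on simulated data with independent noise. Those data held no shared plants and no change of the control with time, so that run cannot show how the fits behave under either. In root 17 plants and in leaf 3 plants were sampled at 2 times; otherwise each time has its own plants. The 3 genes and all lists were chosen with earlier results of these data known. Named genes are the 3 copies, the 5 described genes most like and 3 most opposite to each in each tissue, and list members tested in leaf iron limitation; genes shown beside the control and zinc means were chosen among these after their values were seen. Alternatives varied the pseudocount, filter, scaling, columns fitted, trend, times and the early boundary; leaving out the root iron excess mean at 7 d was added after seeing the data. Python 3.11.15 drew the figures with matplotlib.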

Additional observations from a re-analysis of the deposited data

Results flagged for a closer look

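Across 24 sets of treatment minus control differences, each holding the times of 1 gene, tissue and treatment, 1 set had a time far from the others. Chance alone flags about 1 set in 20. In root under zinc excess, Sobic.002G385300 stood at 9.51 TPM at 2 d against 35.99 TPM in the control, a log2 difference of -1.815, while the next lowest of its 6 differences was -0.135 and the highest 0.231. The number of libraries in this mean as read from its values, 3, differs from the 2 in the labels, and its part in the value was not tested.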

How the results depend on the processing

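No paired analysis was possible because the deposited columns are group means carrying no replicate number. Values are log2 differences. With no filter on low genes, the leaf iron limitation minus control calls of Sobic.002G385300 (-1.579) and Sobic.005G177800 (-2.383) and the late effect of Sobic.001G355600 (4.655) were lost, and rescaled means lost that late effect (4.247). With only the means compared in the fit, these same 2 iron limitation calls (-1.579 and -2.383) and that of Sobic.002G385300 against iron excess (-2.402) were lost, while late minus early passed for Sobic.002G385300 (-2.114) and Sobic.005G177800 (-2.541). Late minus early of Sobic.002G385300 also passed with 0.1 TPM added (-3.985).

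At 7, 14 and 21 d alone, Sobic.001G355600 passed against control in leaf (4.655) and against iron excess in root (2.492), and the root minus leaf effect of iron limitation passed for Sobic.001G355600 (-3.299), Sobic.002G385300 (1.998) and Sobic.005G177800 (2.702). Uncalled values changed sign there for Sobic.001G355600 in leaf zinc excess (0.402), zinc limitation (-0.111) and zinc limitation minus zinc excess (-0.513), for Sobic.002G385300 in root zinc excess (0.0731), and for Sobic.005G177800 in leaf zinc excess (0.139), leaf zinc limitation minus zinc excess (-0.157) and root iron excess (0.218). With the root iron excess mean at 7 d also left out, an alternative chosen after seeing the data, the calls were lost for Sobic.001G355600 against iron excess in root (2.287) and for its root minus leaf effect (-3.299), those of Sobic.002G385300 (1.998) and Sobic.005G177800 (2.702) passed, and the sign changes in root were again seen (0.0731 and 0.192).

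Leaving out 1 time gave ranges for leaf iron limitation minus control of 1.675 to 3.688 (Sobic.001G355600), -1.933 to -1.329 (Sobic.002G385300) and -2.828 to -1.922 (Sobic.005G177800), for iron limitation minus iron excess of 5.004 to 6.663, -2.872 to -2.065 and -3.876 to -3.047 in the same order, and for the late effect of Sobic.001G355600 of 3.625 to 6.112. The root minus leaf effect of iron limitation ran from 0.871 to 2.249 for Sobic.005G177800 and the root minus leaf control level from 0.656 to 1.562 for Sobic.001G355600. Values near 0 changed sign: for Sobic.001G355600 leaf zinc excess (-1.061 to 1.143), zinc limitation (-0.595 to 1.077) and their difference (-0.561 to 0.861), for Sobic.002G385300 (-0.403 to 0.241, -0.141 to 0.36 and -0.197 to 0.375), for Sobic.005G177800 (-0.527 to 0.472, -0.329 to 0.264 and -0.338 to 0.365), for Sobic.002G385300 in root zinc excess (-0.388 to 0.0212) and for Sobic.005G177800 in root iron limitation late minus early (-0.533 to 0.838). The cause was not tested. Trend off changed no call or direction of a copy.

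Of all genes, those called for leaf iron limitation minus control ran from 0 to 3942 higher and 0 to 698 lower over the alternatives (1161 and 320 as reported), and against iron excess from 1 to 2625 higher and 1 to 777 lower (1016 and 409). Genes called late minus early ran from 21 to 1872 (602). The depth behind each mean is unknown, so levels under 1 TPM have no stated precision.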
